A study of Mus musculus with 6 samples.

Results

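The crystallin genes of the mouse retina were followed in whole retinas of WT mice and of Wfs1-KO mice. The genes were chosen by name, as the alpha, beta and gamma crystallins Cryaa, Cryab, Cryba1, Cryba2, Cryba4, Crybb1, Crybb2, Crybb3, Crygs and Crygn, and make up 10 of the 55376 genes in the count table. RNA-seq was performed on retinas of 6 mice at postnatal day 240, 3 per genotype, and the study used it to look for changes that precede loss of retinal ganglion cells. WT mice were wild type, and Wfs1-KO mice carried the Wfs1 knockout, both on the background that the labels give as C57x129 and the study's methods as C57BL/6 J. The knockout is constitutive, so all cells of the eye carry it, and a whole retina pools photoreceptors, interneurons, ganglion cells, glia and vessels.

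Crystallins are the main soluble proteins of the lens. Alpha crystallins are small heat shock proteins that hold unfolding proteins in solution, whereas beta and gamma crystallins are structural proteins that pack densely and keep the lens clear. In the retina, crystallins are also made outside the lens, in Müller glia, ganglion cells and photoreceptors, and they are known to respond to injury and stress, while Wfs1 encodes wolframin, a protein of the endoplasmic reticulum.

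Libraries held between 17916885 and 101334381 gene counts, and 3 counts corresponded to between 0.0291 and 0.170 CPM (counts scaled to the same library total). Wfs1 itself was at 65.4 ± 4.30 CPM in WT retinas and at 7.33 ± 5.65 CPM in Wfs1-KO retinas (SD, n = 3 each), without overlap (log2 fold change -3.15, SE 0.77, edgeR adjusted p = 0.979 with all 6 retinas, and -2.64, SE 0.16, adjusted p = 2.84e-05 without Wfs1-KO replicate 2). Wfs1-KO replicate 2 stood apart, with a mean Pearson r of 0.918 to the other libraries across genes, against 0.962 to 0.971 for the others. The genotype difference of each tested crystallin is therefore given with all 6 retinas and without Wfs1-KO replicate 2. Counts of 18547 genes passed the filter on low counts and were tested, among them 7 of the 10 crystallins, and Cryba1, Cryba2 and Crygs did not pass.

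Of the 6 beta crystallins, 4 lay close together on chromosome 5. By the GENCODE M21 annotation of mm10, Cryba4 (chr5:112246493-112252518, minus strand) and Crybb1 (chr5:112255815-112269585, plus strand) lay 3296 bases apart and head to head, and Crybb2 (chr5:113058258-113070117, minus strand) and Crybb3 (chr5:113075839-113081584, minus strand) lay 5721 bases apart. Crygn (chr5:24751003-24758008, minus strand) was on the same chromosome. Wfs1 is also on chromosome 5, at chr5:36966104-36989205, 12.2 Mb from Crygn and 75.3 to 76.1 Mb from the 4 beta crystallins. The other members lay on other chromosomes, Cryaa at chr17:31677807-31681733 (plus), Cryab at chr9:50751325-50756636 (plus), Cryba1 at chr11:77718615-77725283 (minus), Cryba2 at chr1:74889934-74893143 (minus) and Crygs at chr16:22805203-22811577 (minus).

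The promoters of 4 members are printed because these genes differed in which retina they were highest in, as described below. Each is the 250 bases before the start of transcription given by RefSeq on GRCm38.p6, read 5′ to 3′ on the gene's strand. For Cryaa and Crybb1 this start lies past the GENCODE start (chr17:31677807 and chr5:112255815). Part of these 2 windows, with the TGCTGA of Cryaa, is therefore inside the gene as GENCODE draws it. Capitals mark the letters TGCTGA, the core of the site that Maf factors bind, or TCAGCA, the same site on the other strand, and TATAAA, the TATA box. The windows are chr17:31677681-31677930 (plus) for Cryaa, chr5:112255570-112255819 (plus) for Crybb1, chr5:113070118-113070367 (minus) for Crybb2 and chr5:113081585-113081834 (minus) for Crybb3.
Cryaa: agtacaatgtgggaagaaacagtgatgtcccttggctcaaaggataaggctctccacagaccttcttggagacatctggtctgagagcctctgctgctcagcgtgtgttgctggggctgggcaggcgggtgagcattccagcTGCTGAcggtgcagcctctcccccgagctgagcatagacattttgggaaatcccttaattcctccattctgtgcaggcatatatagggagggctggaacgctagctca
Crybb1: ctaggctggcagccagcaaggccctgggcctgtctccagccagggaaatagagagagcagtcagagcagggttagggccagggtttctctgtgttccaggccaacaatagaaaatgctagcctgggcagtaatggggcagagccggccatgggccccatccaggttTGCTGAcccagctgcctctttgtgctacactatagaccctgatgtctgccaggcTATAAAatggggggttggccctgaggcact
Crybb2: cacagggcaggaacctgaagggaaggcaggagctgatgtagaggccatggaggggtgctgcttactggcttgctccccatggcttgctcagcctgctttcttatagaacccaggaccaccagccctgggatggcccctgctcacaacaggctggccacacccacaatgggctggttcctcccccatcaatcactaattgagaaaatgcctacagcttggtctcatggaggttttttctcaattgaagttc
Crybb3: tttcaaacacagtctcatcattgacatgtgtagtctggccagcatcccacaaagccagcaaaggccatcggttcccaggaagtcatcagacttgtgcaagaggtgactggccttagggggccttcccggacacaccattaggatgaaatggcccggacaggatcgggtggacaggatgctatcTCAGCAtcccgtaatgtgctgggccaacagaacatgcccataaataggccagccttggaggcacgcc

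In these windows, TGCTGA on either strand was present in 8 of the 9 members with a promoter in the table (all but Cryab), Crybb2 being the exception, and in 16.1% of all 32851 promoters of the same length. In Cryaa it began at position -108, in Crybb1 at -84 and in Crybb3 at -67, counted back from -1 at the base before the RefSeq start. TATAAA was present in 3 of 9 members (Crybb1, Cryba1 and Crygs) and in 12.4% of all promoters. Of the heat shock patterns, GAANNTTC was in 0 of 9 members (6.69% of all promoters) and TTCNNGAA was in Cryba1 alone (7.17%). TTCNNNGAA, a pattern with a wider gap that is not counted as a heat shock pattern here, was in 0 of 9 members (7.02%). All were searched on both strands. A match of letters is a description of the window and was not tested as a binding site.

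Cryab, the alpha B crystallin chaperone, was by far the most abundant crystallin. In WT retinas its level per length was 27.7 ± 2.81 RPKM (CPM per kilobase of exon, SD, n = 3), 35.8 times that of Crybb1, the next in order at 0.775 ± 0.366 RPKM. After Crybb1 came Crybb3 (0.752 ± 0.423), Crygn (0.240 ± 0.148), Crybb2 (0.223 ± 0.0849), Cryaa (0.171 ± 0.103), Cryba2 (0.133 ± 0.0215), Cryba4 (0.122 ± 0.111), Crygs (0.105 ± 0.0496) and Cryba1 (0.0795 ± 0.0579 RPKM). In 8 of the 9 neighbouring pairs of this order the WT ranges overlapped, so that Cryab alone was separated from its neighbour. Counts were above 0 in every retina for 8 of 10 members, and the values at 0 were those of Cryba2 in Wfs1-KO replicate 2 and of Cryba4 in WT replicate 3.

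**Figure D1:**
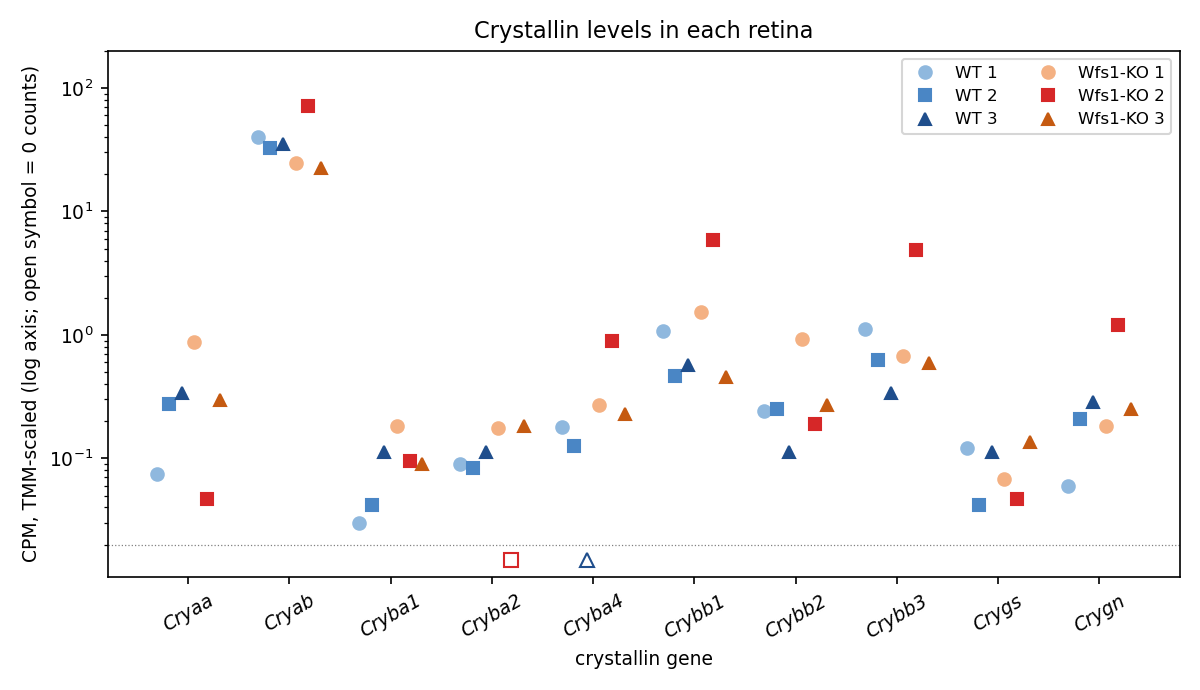
Level of each of the 10 crystallins (x axis) in each of the 6 retinas, as TMM-scaled CPM on a log axis, with 1 symbol per retina and open symbols for 0 counts. Cryab sits between 22.3 and 71.4 CPM, above the other members in every retina, and the red squares of Wfs1-KO replicate 2 are the highest points for Cryab, Cryba4, Crybb1, Crybb3 and Crygn.

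With all 6 retinas, no crystallin passed the test between genotypes (edgeR quasi-likelihood test, Benjamini-Hochberg over 18547 genes, adjusted p = 0.979 for each of the 7). Over all tested genes 0.0108% passed. At an unadjusted p under 0.05, 0 of 7 members passed by edgeR and 1, Crybb1, by DESeq2, against 2.81% and 4.04% of all genes. After adjustment DESeq2 also called 0 of 7, and 0.282% of all genes. All 7 fitted changes were above 0, as were 52.8% of those of all genes, and their median log2 fold change was 1.50 against 0.02 over all tested genes. Without Wfs1-KO replicate 2 the median was 0.48, with 5 members above 0 and 2 below (49.9% of all genes above 0), and 0 of 7 passed after adjustment (0.125% of all genes) while 2, Cryab and Crybb2, had an unadjusted p under 0.05 (5.19% of all genes).

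Of the alpha crystallins, the chaperones of the family, Cryab was at 39.7, 32.5 and 35.2 CPM in the WT retinas and at 24.5, 71.4 and 22.3 CPM in the Wfs1-KO retinas. Wfs1-KO replicates 1 and 3 lay below every WT retina and Wfs1-KO replicate 2 lay above them all, so the groups overlapped by way of a single retina. Over all 6 retinas the difference was small beside its error (35.8 ± 3.63 against 39.4 ± 27.8 CPM, log2 fold change 0.14, SE 0.44). Without Wfs1-KO replicate 2 the Wfs1-KO mean was 23.4 CPM, 34.8% below the WT mean, with a log2 fold change of -0.62 (SE 0.15, edgeR unadjusted p = 0.00183, adjusted p = 0.347). DESeq2 on the same 5 retinas, a fit added after the values were seen, gave -0.62 (SE 0.17) and an adjusted p of 0.0454, which passed the threshold, as did 0.49% of all genes. Groups that did not overlap, with Wfs1-KO lower, were found for 11% of all genes in these 5 retinas. In bulk tissue, fewer cells of a type and less RNA per cell cannot be told apart.

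Cryab lies on chromosome 9. Of the 24 genes that passed the adjusted threshold without Wfs1-KO replicate 2 by edgeR, 11 (45.8%) were on chromosome 9, between 40.8 and 80.0 Mb, although chromosome 9 held 5.81% of the genes tested. In Wfs1-KO retinas 6 of these were lower and 5 higher, and Cryab at 50.8 Mb is inside the interval, which was looked at only after the values were seen. The nearest of the 11 was Il18, a cytokine gene 169 kb from Cryab, which was higher (log2 fold change 1.55, SE 0.22, adjusted p = 0.0248 without Wfs1-KO replicate 2, and 1.85, SE 0.30, adjusted p = 0.482 with all 6). Of the 16 tested genes within 250 kb of Cryab, 2 had an unadjusted p under 0.05 with all 6 retinas, both higher (2.81% of all genes), and 4 without Wfs1-KO replicate 2, 3 lower and 1 higher (5.19% of all genes). Any part of this chromosome segment in the level of Cryab was not tested. Hspb2, the small heat shock gene that starts beside Cryab on the opposite strand, was picked for this report because of that position. Hspb2 had a log2 fold change of 1.21 (SE 0.86) with all 6 retinas and of 0.81 (SE 0.86) without Wfs1-KO replicate 2. Its exons cover 252 bases (19.5%) of those of Cryab, and because no source states whether counting used strand, reads in that stretch cannot be assigned to either gene with certainty.

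Cryaa, the alpha A crystallin that in the lens accompanies Cryab in mixed complexes, followed another order of retinas. It was at 0.0752, 0.273 and 0.340 CPM in WT and at 0.873, 0.0473 and 0.295 CPM in Wfs1-KO retinas, from 5, 13 and 6 counts and from 90, 2 and 13 counts. Wfs1-KO replicate 1 was 2.56 times the next retina, and Wfs1-KO replicate 2, the highest for Cryab, was the lowest. The log2 fold change was 0.97 (SE 1.00) with all 6 retinas and 1.53 (SE 0.72, unadjusted p = 0.0571, adjusted p = 0.962) without Wfs1-KO replicate 2, but -0.33 without Wfs1-KO replicate 1. The ratio of Cryab to Cryaa per length was 548, 124 and 108 in WT and 29.1, 1569 and 78.4 in Wfs1-KO retinas. These ratios rest on few Cryaa counts, 5 in the WT retina with the highest WT ratio and 2 in Wfs1-KO replicate 2. AC090881.2, on the opposite strand, overlaps 194 bases (14.5%) of the exons of Cryaa, so these low counts are uncertain in the same way.

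Among the acidic beta crystallins, Cryba4 was the only member of the 10 whose groups did not overlap over all 6 retinas (8.96% of all tested genes had groups that did not overlap). It was at 0.181, 0.126 and 0 CPM in WT and at 0.272, 0.898 and 0.227 CPM in Wfs1-KO retinas, which is 12, 6 and 0 counts against 28, 38 and 10. The log2 fold change was 1.92 (SE 0.89, edgeR adjusted p = 0.979), and 1.01 (SE 0.81) without Wfs1-KO replicate 2, and neither passed the test. Cryba1 was at 0.0301, 0.0420 and 0.113 CPM in WT and 0.184, 0.0946 and 0.0908 CPM in Wfs1-KO retinas, and Cryba2 at 0.0903, 0.0840 and 0.113 against 0.175, 0 and 0.182 CPM. Both are structural acidic beta crystallins. Their counts were 2, 2 and 2 in WT and 19, 4 and 4 in Wfs1-KO retinas for Cryba1, and 6, 4 and 2 against 18, 0 and 8 for Cryba2, so most values were within a few counts of 0 and the most counts were in the deepest library, Wfs1-KO replicate 1. Fitted with no filter on low counts, their log2 fold changes were 1.14 (SE 1.19) and 0.35 (SE 1.23).

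The basic beta crystallins split into a pair and a single gene. Crybb1, which starts beside Cryba4, was at 1.08, 0.462 and 0.567 CPM in WT and at 1.53, 5.82 and 0.454 CPM in Wfs1-KO retinas. Crybb3 was at 1.11, 0.630 and 0.340 CPM against 0.679, 4.87 and 0.590 CPM. In both, Wfs1-KO replicate 2 was far above the rest, by 3.80 and 4.37 times the next retina, and held 46.6% and 50% of all counts of the gene. Their log2 fold changes were 1.85 (SE 0.88) and 1.50 (SE 0.90) with all 6 retinas, and 0.48 (SE 0.55) and -0.21 (SE 0.50) without that retina.

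Crybb2, the beta crystallin next to Crybb3, did not share this pattern. It was at 0.241, 0.252 and 0.113 CPM in WT and at 0.931, 0.189 and 0.272 CPM in Wfs1-KO retinas, with 96 of its counts in Wfs1-KO replicate 1 and 8 in replicate 2. The highest retina was therefore that of Cryaa and not that of its neighbour, at 3.42 times the next. The log2 fold change was 1.16 (SE 0.73) with all 6 retinas and 1.50 (SE 0.64, unadjusted p = 0.0386, adjusted p = 0.903) without Wfs1-KO replicate 2, but 0.13 without Wfs1-KO replicate 1. Without Wfs1-KO replicate 2, groups did not overlap for Crybb2, Cryba4 and Cryba2, all higher in Wfs1-KO (11.4% of all tested genes).

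**Figure D2:**
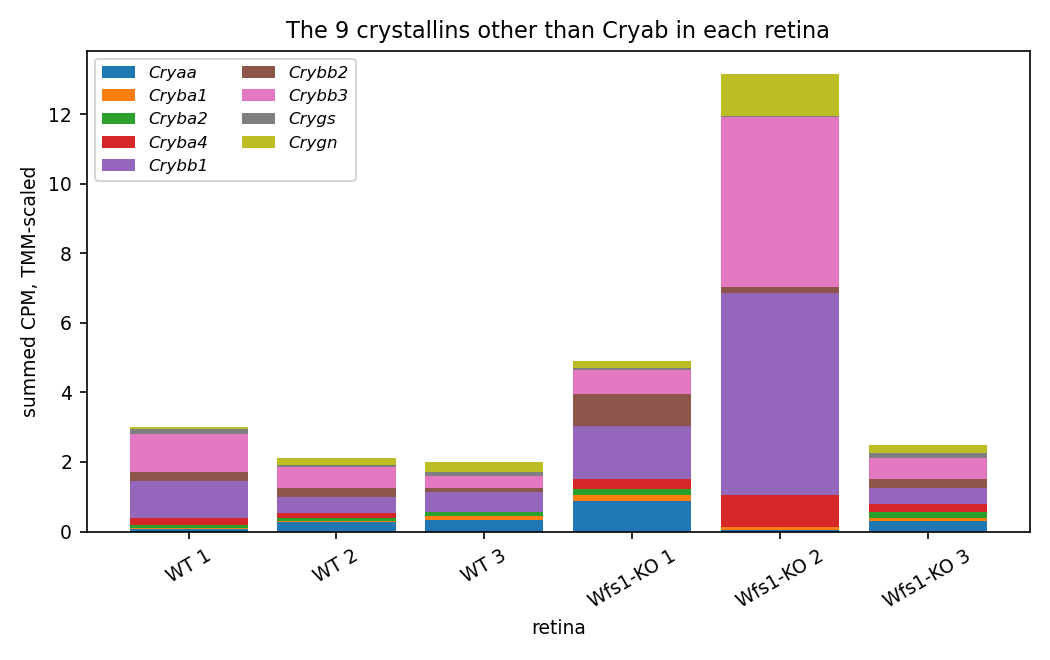
Stacked bars of the summed TMM-scaled CPM (y axis) of the 9 crystallins other than Cryab in each of the 6 retinas (x axis), 1 colour per gene. The bar of Wfs1-KO replicate 2 reaches 13.2 CPM and is mostly Crybb1 and Crybb3, and that of Wfs1-KO replicate 1 reaches 4.90 CPM with larger parts of Cryaa and Crybb2.

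Of the gamma crystallins, Crygn, a form with features of both beta and gamma crystallins, was at 0.0602, 0.210 and 0.284 CPM in WT and at 0.184, 1.21 and 0.250 CPM in Wfs1-KO retinas. As for Crybb1 and Crybb3, a single retina stood out, Wfs1-KO replicate 2 with 51.0% of the counts. The log2 fold change was 1.66 (SE 0.95) with all 6 retinas and 0.37 (SE 0.81) without it. Crygs, the gamma S crystallin of the adult lens, was at 0.120, 0.0420 and 0.113 CPM in WT and at 0.0679, 0.0473 and 0.136 CPM in Wfs1-KO retinas. No retina stood out for Crygs, with at most 8 counts, and its fit with no filter gave -0.14 (SE 1.19).

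Across the family, the highest retina was Wfs1-KO replicate 2 for 5 members (Cryab, Cryba4, Crybb1, Crybb3 and Crygn), Wfs1-KO replicate 1 for 3 (Cryaa, Cryba1 and Crybb2) and Wfs1-KO replicate 3 for 2 (Cryba2 and Crygs). Of all tested genes, 38.4% were highest in Wfs1-KO replicate 2 and 8.45% in Wfs1-KO replicate 1. The summed level of the 10 genes was 42.7, 34.6 and 37.2 CPM in WT and 29.4, 84.6 and 24.8 CPM in Wfs1-KO retinas, a ratio of means of 1.21 with all retinas and of 0.709 without Wfs1-KO replicate 2. Cryab made up 93.0%, 93.9% and 94.7% of it in WT and 83.3%, 84.4% and 89.9% in Wfs1-KO retinas. With Cryab left out, a sum chosen after the values were seen, the level was 2.99, 2.12 and 1.99 CPM against 4.90, 13.2 and 2.5 CPM, and the ratio was 2.90, or 1.56 without Wfs1-KO replicate 2. The 2 sums thus lay on opposite sides of 1 without that retina, because Cryab alone outweighs the other 9.

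**Figure D3:**
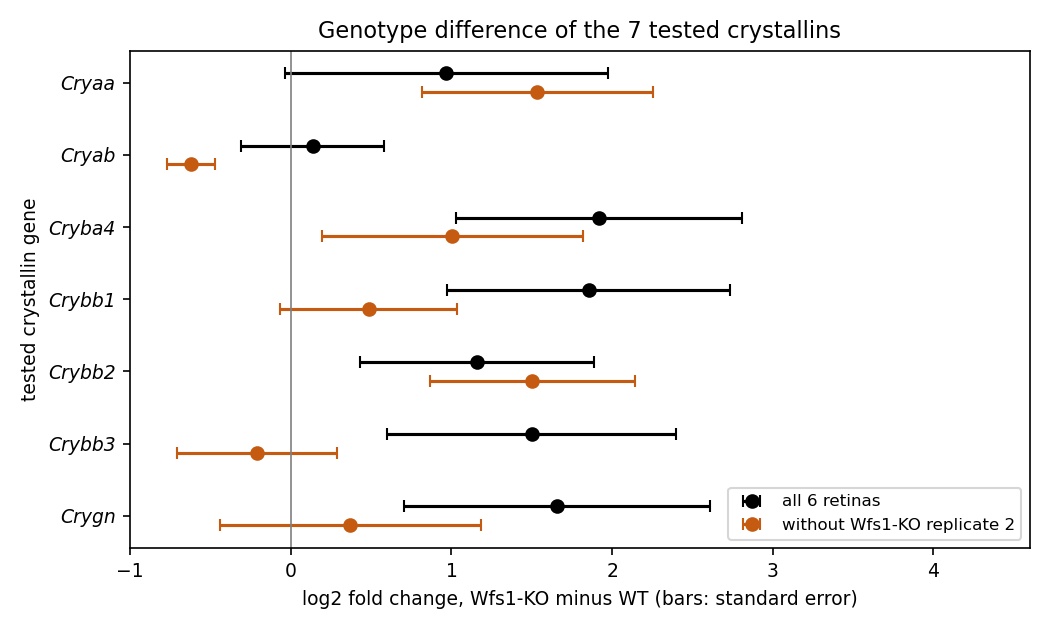
log2 fold change, Wfs1-KO minus WT (x axis), of the 7 tested crystallins (y axis), with standard errors as bars, for all 6 retinas in black and without Wfs1-KO replicate 2 in orange. Without that retina Cryab moves from 0.14 to -0.62 and Crybb3 from 1.50 to -0.21. Cryaa moves from 0.97 to 1.53, Crybb2 from 1.16 to 1.50 and Cryba4 from 1.92 to 1.01.

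Genes of the lens were measured beside the crystallins, since a retina can be dissected with lens tissue. Of the other gamma crystallins, which lens fibres make in large amounts, Crygb, Crygc, Cryge and Crygf were at 0 in all 6 retinas, and the 6 of this list, with Cryga and Crygd, summed to at most 0.165 CPM. Of 14 lens fibre markers, Dnase2b and Lctl were at 0 and 4 passed the filter. Leaving out Hsf4, a transcription factor that made up most of the sum, the other 13 summed to between 1.09 and 1.84 CPM in WT and to 1.64, 3.88 and 2.29 CPM in Wfs1-KO retinas. Wfs1-KO replicate 2 was thus also the highest for this list. None of the 4 passed the edgeR or the DESeq2 test (1, Bfsp2, had an unadjusted p under 0.05 by either), with a median log2 fold change of 0.06, or 0.23 for the 6 tested without Wfs1-KO replicate 2. Bfsp2, a beaded filament gene of the lens fibre cell, was at 0.105, 0.0840 and 0.113 CPM in WT and at 0.330, 1.21 and 0.522 CPM in Wfs1-KO retinas, without overlap (log2 fold change 2.74, SE 0.67, adjusted p = 0.979, and 2.05, SE 0.67, adjusted p = 0.693 without Wfs1-KO replicate 2), and was picked after its values were seen. The part of lens RNA in the crystallin levels was not tested.

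Wfs1-KO replicate 2 also stood apart in markers of other cells. The 14 genes of reactive glia, the state that Müller cells and astrocytes take on after injury, summed to between 296 and 316 CPM in WT and to 458, 1113 and 368 CPM in Wfs1-KO retinas. All 14 were highest in Wfs1-KO replicate 2 (38.4% of all tested genes). Groups did not overlap for 9, all higher in Wfs1-KO (8.96% of all tested genes in either direction). With all 6 retinas none passed by edgeR, and 11 had an unadjusted p under 0.05 (2.81% of all genes), with a median log2 fold change of 1.73. By DESeq2 3 passed (0.282% of all genes). Vim, the gene of the list with the highest level, was at 142, 115 and 134 CPM in WT and at 143, 279 and 128 CPM in Wfs1-KO retinas. Its log2 fold change went from 0.49 (SE 0.31) to 0.05 (SE 0.14) without Wfs1-KO replicate 2, and that of Fgf2 from 0.65 (SE 0.27) to 0.41 (SE 0.20). The median of the list without that retina was 0.54. Stat3, the factor that signals in reactive glia, was at 60.3, 64.5 and 66.8 CPM in WT and at 81.3, 99.4 and 74.3 CPM in Wfs1-KO retinas, above WT in all 3 (log2 fold change 0.41, SE 0.17, adjusted p = 0.979, and 0.28, SE 0.13, adjusted p = 0.962 without Wfs1-KO replicate 2). Without Wfs1-KO replicate 2 the protease inhibitor Serpina3n rose (1.23, SE 0.14, edgeR adjusted p = 0.00490, against 1.83, SE 0.39, adjusted p = 0.979 with all 6). It was the 1 gene of the list past the edgeR threshold (0.125% of all genes). In the same 5 retinas 7 of 14 had an unadjusted p under 0.05 by edgeR (5.19% of all genes) and DESeq2 called 5 (0.49%). The log2 fold change of Cryab, which glia also make, was -0.62 in those 5 retinas.

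The rest of the retina gave smaller shifts and the tissues around it larger ones. Müller glia markers summed to between 5720 and 6390 CPM in WT and to 5205, 7615 and 5524 CPM in Wfs1-KO retinas, rod markers to between 67277 and 74620 CPM against 66255, 51360 and 66758 CPM, and ganglion cell markers to between 1159 and 1354 CPM against 1023, 1589 and 1130 CPM. Of the 8 Müller glia markers 2 were highest in Wfs1-KO replicate 2 (38.4% of all tested genes). Among them the lipid carrier Apoe, at 3621 CPM against 617 to 971 CPM in the other retinas, carried the high sum of that retina. Glul, the glutamine synthetase of these cells, was at 3243, 2965 and 3110 CPM in WT and at 2323, 1945 and 2681 CPM in Wfs1-KO retinas. It was thus lower in every Wfs1-KO retina (log2 fold change -0.42, SE 0.18, edgeR adjusted p = 0.979, and -0.32, SE 0.11, adjusted p = 0.792 without Wfs1-KO replicate 2). Groups did not overlap, with Wfs1-KO lower, for 2 of the 8, Glul and Car14 (8.96% of all tested genes in either direction). The same was found for 3 of 9 rod, 1 of 10 ganglion cell and 1 of 9 pigment epithelium markers. Of 5 tested corneal epithelium markers, 1 had groups that did not overlap, with Wfs1-KO higher. Pigment epithelium markers summed to between 108 and 162 CPM in WT and to 86.6, 399 and 48.6 CPM in Wfs1-KO retinas. Corneal epithelium markers, with Kera at 0, were at 3.72 to 5.79 CPM against 4.59, 39.3 and 5.08 CPM, and blood markers at 12.3 to 41.2 CPM against 22.8, 480 and 20.1 CPM. Of these cell and tissue lists, 0 genes passed with all 6 retinas by edgeR or DESeq2. At most 1 gene of each had an unadjusted p under 0.05 by either (2.81% and 4.04% of all genes). Without Wfs1-KO replicate 2, Lrat, which esterifies vitamin A in the pigment epithelium, fell (-1.99, SE 0.31, edgeR adjusted p = 0.0467, against -1.54, SE 0.42, adjusted p = 0.979 with all 6). DESeq2 called 3 of the pigment epithelium list in those 5 retinas (0.49% of all genes). An unadjusted p under 0.05 by edgeR was found there for 5 of 9 pigment epithelium and 3 of 9 rod markers (5.19% of all genes). It was also found for 3 of 10 ganglion cell and 2 of 8 Müller glia markers, and for 0 of 5 tested corneal epithelium and 0 of 5 tested blood markers. Wfs1-KO replicate 2 was thus also the highest in the summed markers of pigment epithelium, cornea and blood and the lowest in those of rods. The part of these tissues in its crystallin levels was not tested.

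**Figure D4:**
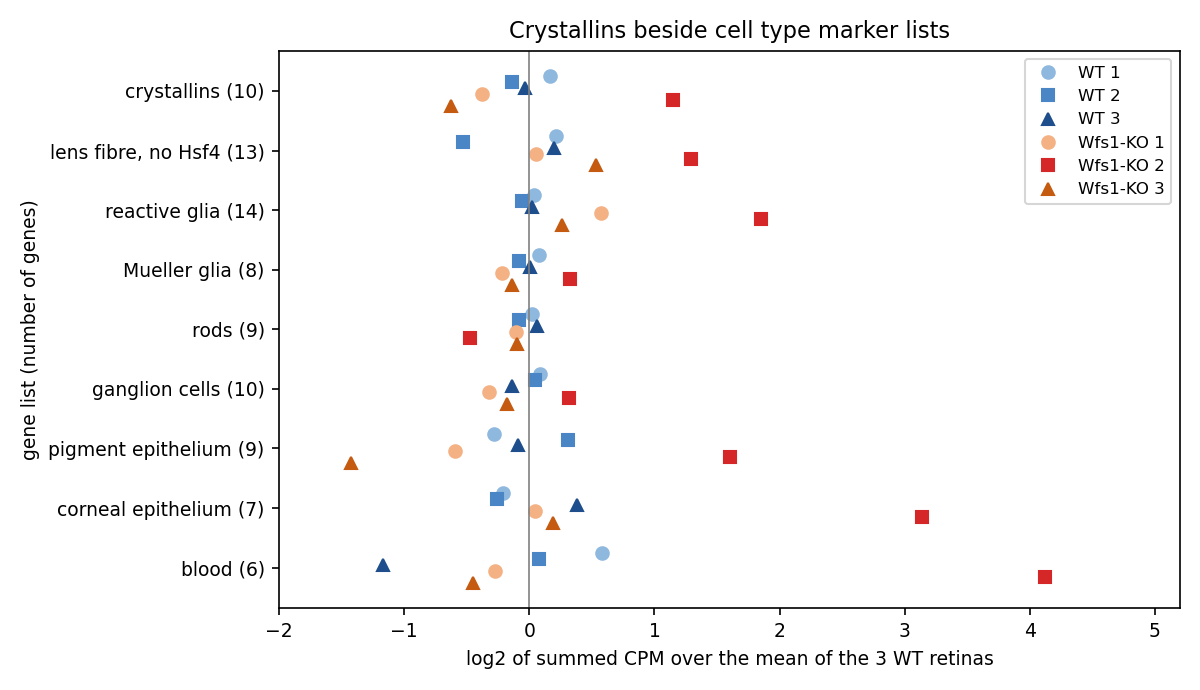
log2 of the summed CPM of each list over the mean of the 3 WT retinas (x axis), for the 10 crystallins and 8 marker lists (y axis, with the number of genes), 1 symbol per retina. The red square of Wfs1-KO replicate 2 is to the right of all other retinas in every list but the rods, where it is to the left, and it is farthest out for blood, at 480 CPM against 12.3 to 41.2 CPM in WT.

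Other small heat shock proteins, the family of Cryaa and Cryab, were measured alongside. Of 7 listed genes, 6 were tested and none passed by edgeR or DESeq2 (0 with an unadjusted p under 0.05 by either), with a median log2 fold change of 0.27, or -0.15 without Wfs1-KO replicate 2, against 0.02 over all genes. Hspb6, the most abundant, was at 88.8 ± 10.4 CPM in WT and 86.8 ± 3.79 CPM in Wfs1-KO retinas (SD, n = 3 per genotype), and its log2 fold change was -0.03 (SE 0.16). Hspb1, the injury-induced chaperone of neurons and glia, was at 5.60, 4.12 and 4.88 CPM in WT and 4.56, 17.8 and 3.04 CPM in Wfs1-KO retinas. As for Cryab, Wfs1-KO replicate 2 was the highest for Hspb1, and its log2 fold change went from 0.80 (SE 0.63) to -0.35 (SE 0.25) without that retina. Hspb8 had a log2 fold change of -0.15 (SE 0.22).

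Genes that carry the crystallin name but are not lens structural proteins were led by Crym, a thyroid hormone-binding enzyme. Crym was at 46.6, 38.3 and 41.0 CPM in WT and at 62.1, 136 and 54.7 CPM in Wfs1-KO retinas. Every Wfs1-KO retina was above every WT retina, with a log2 fold change of 1.00 (SE 0.35, edgeR adjusted p = 0.979) and of 0.47 (SE 0.14, unadjusted p = 0.00774, adjusted p = 0.631) without Wfs1-KO replicate 2. Of the 7 genes listed, all were tested and none passed by edgeR or DESeq2. An unadjusted p under 0.05 was found for 1, Crym, by edgeR and for 1 gene by DESeq2 (2.81% and 4.04% of all genes). Groups did not overlap for 2, Crym and Cryl1 (named for this count), against 8.96% of all tested genes. The median log2 fold change was 0.10, or 0.31 without Wfs1-KO replicate 2. Cryzl1 (0.05, SE 0.20), Crybg3 (-0.08, SE 0.53) and Cryz (0.10, SE 0.16) were close to 0 on the log2 scale.

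Transcription factors listed as regulators of crystallin genes were measured as well. Of 17 listed, 15 were tested and none passed by edgeR or DESeq2 (0 with an unadjusted p under 0.05 by either), with a median log2 fold change of -0.01, and of 0.0024 without Wfs1-KO replicate 2. The factors with the highest levels, with their log2 fold changes, were Nrl, the rod determinant of the Maf family, at -0.14 (SE 0.17), Pax6, which specifies the eye, at 0.11 (SE 0.17), Prox1 at 0.04 (SE 0.23) and Six3 at 0.64 (SE 0.39), or 0.02 (SE 0.14) without Wfs1-KO replicate 2. Maf, whose lens form binds TGCTGA, was picked after its values were seen and was at 20.0, 20.4 and 23.9 CPM in WT and at 19.3, 70.0 and 18.2 CPM in Wfs1-KO retinas. It was thus highest in the same retina as Crybb1 and Crybb3, which hold the motif in the windows printed above. The same retina was highest for Cryba4 and Crygn, which also hold it, but not for Cryaa, Cryba1, Cryba2 and Crygs, which hold it too. Wfs1-KO replicate 2 was the highest for 6 of the 15 tested factors and for 38.4% of all tested genes. No binding was measured.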

How the data were processed

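Whole-retina RNA-seq of 3 mice per genotype was analysed. The deposited table gives raw counts per gene as the authors made them with Trimmomatic 0.39, STAR 2.5.3a and featureCounts 1.6.4 on mm10, per the labels. Of its 8 library columns, 2 matched no sample in the labels and were not used. Between 65.5% and 73.8% of counts from 1 to 100 per library were even, so 2 counts may be 1 read pair. Of the 52 crystallin values above 0 outside Cryab, 43 (82.7%) were even. This cause was not tested.

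Counts were fitted in R 4.3.3 with the edgeR 4.0.16 quasi-likelihood test on trended dispersions, after TMM scaling and the default filter on low counts, with genotype as the only term and Benjamini-Hochberg adjustment over all tested genes (threshold 0.05). DESeq2 1.42.0 and limma-voom (limma 3.58.1) were alternatives, as were other scalings, filters, a replicate block and leaving out each retina. CPM used TMM-scaled totals, RPKM the table's gene lengths. The fits were also run on simulated data, where far fewer of the changed genes were recovered at low counts. No result here rests on that run. SDs and SEs cover the spread between mice, and the level given for 3 counts covers counting error only. Libraries of one genotype are from different mice, per the study's methods.

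The members, gene lists and motifs were chosen with earlier results of these data known. Named genes are all 10 members, up to 4 per list with the highest mean CPM and any past the threshold. Genes named outside this rule, for a count of 0 in every retina, a position or groups that did not overlap, were picked after their values were seen. DESeq2 without Wfs1-KO replicate 2, halved counts and the sum without Cryab were added after seeing the data. Positions are from GENCODE M21 (87.9% of table genes have the same outer coordinates), and promoters from RefSeq (GRCm38.p6, 9 of 10 members matched).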

Additional observations from a re-analysis of the deposited data

How the results depend on the processing

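The count of genes past the adjusted threshold was 2 in the edgeR test, 52 with DESeq2, 9 with no filter on low counts and 1 with the replicate block, and between 0 and 24 when 1 retina was left out, with 24 without Wfs1-KO replicate 2 and 0 without any 1 of the WT retinas. DESeq2 without Wfs1-KO replicate 2, added after seeing the data, gave 94. The count of crystallins past it was 1, Cryab, with DESeq2 without Wfs1-KO replicate 2 and 0 under every other alternative run. Directions turned for Cryaa without Wfs1-KO replicate 1 (-0.33), for Cryab with limma-voom (-0.0828), with the replicate block (-0.0905) and without Wfs1-KO replicate 2 (-0.62 with edgeR and with DESeq2), and for Crybb3 without Wfs1-KO replicate 2 (-0.21 with edgeR, -0.19 with DESeq2). With 1 retina left out, Cryaa ran from -0.33 to 1.53, Cryab from -0.62 to 0.42 and Crybb3 from -0.21 to 2.02 on the log2 scale. The summed level, as log2 of Wfs1-KO over WT, was 0.28, between -0.50 and 0.58 with 1 retina left out (-0.50 without Wfs1-KO replicate 2), and 1.53 with Cryab left out. The log2 difference of the Cryab to Cryaa ratio was -0.34 and ran from -2.02 (without Wfs1-KO replicate 2) to 0.85 (without Wfs1-KO replicate 1), with 0.41 without WT replicate 1 and 0.14 without Wfs1-KO replicate 3. Of the single-gene values, 81 kept their direction and 5 turned under the alternatives listed first, and 8 and 2 under the added ones. Replicate numbers did not pair the samples (r of deviations -0.23, -0.11 and 0.08 for numbers 1, 2 and 3), so the block is only a number. Outside Cryab the counts were low, and both these counts and the spread among Wfs1-KO retinas bear on what could be detected, the common dispersion of edgeR being 0.128 with all 6 retinas and 0.0322 without Wfs1-KO replicate 2. The cause of the turned directions was not tested.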

Other observations

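Candidates were the 14670 tested genes with at least 50 counts on average, outside the members and chromosome 18. The genes most like the crystallins across retinas were named by Pearson r of log2 CPM with the mean of the members' standardised levels. Over the 6 retinas these were Atp13a4 (0.994), Timp2, an inhibitor of matrix proteases (0.991), Vwf, the clotting factor of vessel walls (0.988), Sp7, Glis2, Col1a1, a chain of collagen I, Upk1b, Ror2, Tecta and Mrgpre (0.959). Without Wfs1-KO replicate 2 the 10 most like genes had r from 0.999 to 0.986 over 5 retinas, and among them were H2-Q4 and C4b, a complement component. Only Atp13a4 and Sp7 were in both lists of 10. These values are a description over few libraries, which differed in depth and among which Wfs1-KO replicate 2 stood apart.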
